A study of Sus scrofa with 32 samples.

Results

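In the pig endometrium on Day 14, 10 genes in common use as markers of endothelial identity, PECAM1, CDH5, VWF, CLDN5, TIE1, EMCN, ERG, EGFL7, ESAM and ENG, were followed through 4 compartments. The members were found by their pig symbols, and all 10 matched 1 NCBI gene ID each among the 30185 genes counted. The compartments were the epithelium of the lumen (LE) and of the glands (GE), the vessels (BV) and the stroma (S), cut by laser capture microdissection from frozen sections of cyclic and pregnant gilts. According to the paper, the vessels cut were the larger ones, and the stroma came from areas without other visible structures. All gilts were prepuberal and had been synchronised with the gonadotropins eCG and hCG. Pregnant gilts (n = 4, called P39, P41, P43 and P139 by their labelled numbers) were inseminated with German Landrace semen, and their tissue came from the hyperemic zones where conceptuses attach. Cyclic gilts (n = 4, C40, C42, C78 and C128) received only the supernatant of semen of the same boar. Pregnancy and sampling site therefore cannot be told apart. Counts were analysed for 31 libraries, 1 per gilt and compartment, with GE of pregnant gilt P41 not analysed here, so that pregnant GE has n = 3.

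Endothelial cells line all vessels, and the genes named here build that lining in different ways. PECAM1, CDH5 (VE-cadherin), CLDN5 and ESAM hold neighbouring endothelial cells together, TIE1 and ENG are receptors or co-receptors at their surface, and EMCN is a sialomucin of their luminal coat. VWF and EGFL7 are secreted, VWF from the storage granules of the endothelium, and ERG is the ETS family transcription factor that maintains the endothelial programme. In the uterus the subepithelial vessel bed is remodelled when the conceptus attaches. The 10 genes are in common use as a yardstick for how much endothelium a tissue sample holds.

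Library totals ranged from 2415216 to 7081556 counts with a median of 3624021. Levels are counts scaled to CPM (counts per 1e6 counts) after TMM normalization over the 31 libraries, and a floor of 3 counts corresponds to 0.852 to 1.28 CPM in BV, 0.514 to 1.14 CPM in S, 0.428 to 0.960 CPM in LE and 0.590 to 0.896 CPM in GE. A gene is called detectable in a compartment when it stands in the table that the authors filtered by CPM. All 10 members were detectable in BV and in S, 9 in LE (not CLDN5) and 4 in GE (PECAM1, CDH5, VWF and ENG).

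The BV captures held more than endothelium. Genes of smooth muscle and pericytes (19 genes) summed to 3162 to 26100 CPM in BV and to 2024 to 4057 CPM in S, and genes of fibroblasts (13 genes) summed to 28230 to 96490 CPM in BV, against 1504 to 3074 CPM for the 10 members. No library of BV lacked the members, as the lowest count of any member in any BV library was 30 (CLDN5, pregnant gilt P43). The BV library of pregnant gilt P139 stood apart from the other 3 pregnant ones. Genes of lymphatic endothelium (6 genes) summed to 562 CPM there, with PROX1, their transcription factor, at 214 CPM, against 20.0 to 64.9 CPM for the list in the other 7 BV libraries. That library also had 256 CPM of GJA5, a connexin of arterial endothelium, where the other 3 pregnant BV libraries had 6.90 to 9.10 CPM and the 4 cyclic ones 95.6 to 199.6 CPM. In these bulk captures, fewer endothelial cells and less RNA per cell cannot be told apart.

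**Figure D1:**
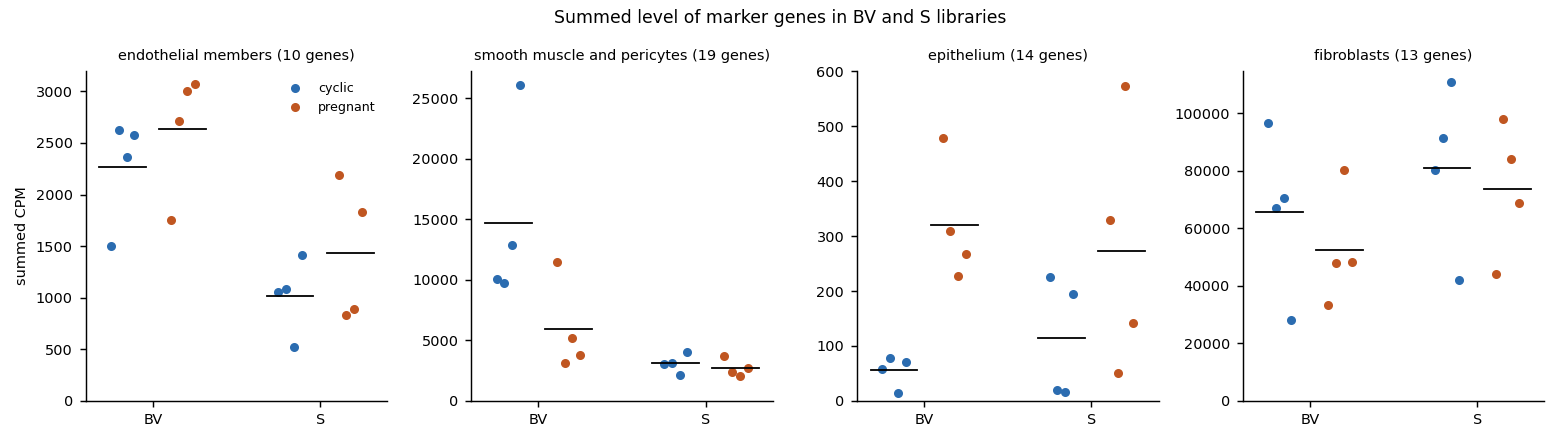
Summed CPM (y axis) of the 10 endothelial members and of the genes of smooth muscle and pericytes, epithelium and fibroblasts in each BV and S library (points) of cyclic and pregnant gilts, with group means as bars. The members sum to 1504 to 2623 CPM in cyclic and 1755 to 3074 CPM in pregnant BV, while the epithelial genes sum to 14.8 to 78.5 CPM in cyclic and 228 to 480 CPM in pregnant BV, without overlap.

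Sequence upstream of the annotated starts was read from Sscrofa11.1 with the RefSeq annotation, on the strand of the gene and 5′ to 3′. Because ERG belongs to the ETS factors, the 250 bases before each start were searched on both strands for 2 words that ETS factors are known to bind, CAGGAA and CCGGAA, which do not overlap each other here. CAGGAA was found in PECAM1, 153 to 148 bases before the start, and this sequence is shown with the word in capitals. TIE1 and EGFL7 are shown because they had the largest differences between pregnant and cyclic BV among the members, and neither window holds the words. EGFL7 lies on an unplaced scaffold, and the stretch shown covers bases 1119034 to 1119153 of it on the minus strand.
PECAM1 (chr12:14667393-14667642, plus strand): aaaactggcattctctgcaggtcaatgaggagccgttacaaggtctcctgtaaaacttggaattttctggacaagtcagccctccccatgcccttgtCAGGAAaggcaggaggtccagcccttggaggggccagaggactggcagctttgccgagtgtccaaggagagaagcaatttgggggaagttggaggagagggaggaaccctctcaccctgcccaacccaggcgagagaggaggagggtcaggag
TIE1 (chr6:167947254-167947373, minus strand): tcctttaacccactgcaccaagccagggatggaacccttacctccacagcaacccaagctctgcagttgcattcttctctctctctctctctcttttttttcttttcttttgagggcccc
EGFL7 (unplaced scaffold, minus strand): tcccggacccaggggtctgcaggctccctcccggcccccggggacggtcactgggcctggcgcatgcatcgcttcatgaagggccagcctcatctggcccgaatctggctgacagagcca

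At least 1 of the 2 words was present in 32.1% of the 20653 windows of the same length before protein-coding genes, and in 35.2% of the 10678 of them that belong to genes detectable in BV. CAGGAA alone was present in 21.5% and CCGGAA alone in 13.1% of all windows. The word AGATAA, bound by GATA factors, was in 8.6% of all windows and in none of the windows shown, searched on both strands. These are matches of letters in 1 short window before 1 annotated start and describe no binding.

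Every member had its highest mean level in BV, followed by S, LE and GE in that order. Among the junction proteins, PECAM1 (gene ID 396941, chr12:14667643-14723296) averaged 466 ± 153 CPM in BV (SD, n = 8), 149.6 ± 55.1 in S (n = 8), 73.4 ± 38.8 in LE (n = 8) and 9.13 ± 6.52 in GE (n = 7). CDH5 (414737, chr6:27108560-27142145) averaged 294 ± 61.2 CPM in BV, 199.8 ± 107 in S, 90.5 ± 47.4 in LE and 7.27 ± 7.89 in GE. PECAM1 thus fell more steeply from BV to S than CDH5, and the BV and S ranges of CDH5 overlapped whereas those of PECAM1 did not. ESAM (100522817, chr9:51983019-51992415) averaged 67.1 ± 14.0 CPM in BV, 40.2 ± 20.4 in S, 17.5 ± 8.59 in LE and 1.18 ± 0.787 in GE. CLDN5 (396997, chr14:51161490-51162382), the claudin of endothelial tight junctions, was the lowest member with 23.7 ± 9.07 CPM in BV, 8.76 ± 6.24 in S, 2.80 ± 2.64 in LE and 0.842 ± 1.18 in GE. No count of CLDN5 was found in LE of cyclic gilt C78 or in GE of cyclic gilts C78 and C128 and pregnant gilt P39, where the floor allows the values given above.

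The receptors followed the same order. TIE1 (494022, chr6:167919662-167947253), the orphan receptor that pairs with the angiopoietin receptor TEK, averaged 56.5 ± 22.3 CPM in BV, 37.4 ± 23.7 in S, 16.0 ± 6.66 in LE and 2.36 ± 1.93 in GE. ENG (397096, chr1:268309379-268343861), the endoglin co-receptor for BMP and TGF-beta ligands, averaged 251 ± 102 CPM in BV, 156 ± 64.1 in S, 60.1 ± 28.1 in LE and 7.50 ± 4.30 in GE. EMCN (100628129, chr8:120174091-120227971) averaged 115 ± 36.7 CPM in BV, 74.2 ± 27.7 in S, 37.3 ± 20.5 in LE and 2.35 ± 2.86 in GE. All 3 surface genes overlapped between BV and S in their single libraries.

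The secreted members and the transcription factor completed the order. VWF (399543, chr5:64516627-64655938), the adhesive protein that tethers platelets, averaged 1056 ± 363 CPM in BV, 480 ± 256 in S, 156.9 ± 70.0 in LE and 20.4 ± 24.5 in GE. EGFL7 (100511434, unplaced scaffold, bases 1107088 to 1119033) averaged 58.2 ± 24.1 CPM in BV, 42.9 ± 23.0 in S, 13.2 ± 4.99 in LE and 1.91 ± 1.61 in GE. ERG (100625364, chr13:201999237-202302572) averaged 64.3 ± 14.4 CPM in BV, 38.6 ± 17.9 in S, 16.4 ± 9.08 in LE and 1.02 ± 1.49 in GE. Another annotated gene overlaps 3 members. PECAM1 overlaps a long non-coding RNA with 7 counts over all 31 libraries, EGFL7 is the host of MIR126 with 40 counts, and the end of ENG overlaps that of FPGS on the other strand with 1648 counts.

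Per kilobase of annotated exon, PECAM1 had the highest mean level in BV with 131.5 ± 43.1 CPM per kb, followed by VWF with 122 ± 41.8 and CDH5 with 75.6 ± 15.8. The levels per kb of PECAM1 and VWF in BV differed by less than their spread over libraries. TIE1 was the lowest with 5.14 ± 2.03 CPM per kb, over annotated exons that sum to 10990 bases across all its transcripts. In S the first places were VWF with 55.3 ± 29.5 and CDH5 with 51.5 ± 27.6 CPM per kb, and PECAM1 came next with 42.2 ± 15.5, all within 1 SD of each other.

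**Figure D2:**
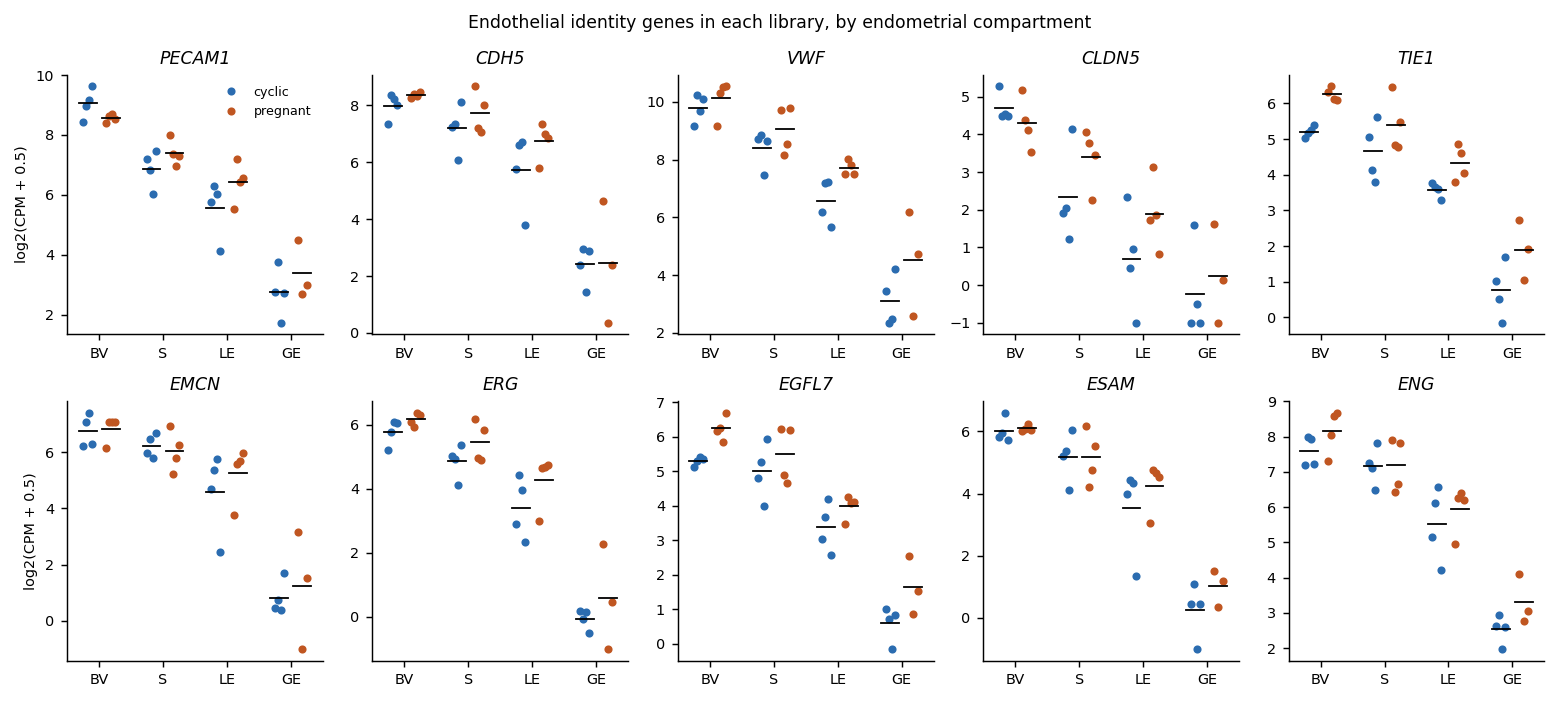
Level of each member in each library as log2(CPM + 0.5) on the y axis, by compartment on the x axis, for cyclic (left points) and pregnant gilts (right points), with group means as bars. All 10 members step down from BV over S and LE to GE, and in BV the cyclic and pregnant points of TIE1 and EGFL7 do not overlap.

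The comparison of BV with the other compartments asks how far the capture of larger vessels enriched the endothelial genes. It was tested with edgeR's quasi-likelihood test in 1 joint fit with the gilt as a block, averaged over cyclic and pregnant gilts, at a false discovery rate (FDR) of 1% over 13887 genes. Against GE, all 10 members were higher in BV, by 4.63 (TIE1) to 6.03 (ERG) on the log2 scale, where 29.9% of all genes were called higher in BV. In GE 4 members passed the filter, and ERG, which did not, averaged 1.02 CPM there, so the upper end of this range rests on values near the floor. Against LE, all 10 were also higher in BV, by 1.67 (EMCN) to 3.21 (CLDN5), where 23.4% of all genes were. Since the members are markers of the tissue captured, these calls describe the dissection. In each gilt with both libraries, every member was higher in BV than in LE (8 of 8) and in GE (7 of 7).

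Against S, 1 member was called, where 3.81% of all genes were called higher in BV. PECAM1 had 349, 501, 574 and 788 CPM in cyclic BV (gilts C128, C40, C42 and C78) and 337, 396, 417 and 370 CPM in pregnant BV (gilts P139, P39, P41 and P43). The S libraries had 146, 112, 65.3 and 175 CPM in the cyclic and 255, 163, 124 and 157 CPM in the pregnant gilts, in the same order. Each BV library was thus above every S library. PECAM1 was higher in BV by 1.67 on the log2 scale (SE 0.33, edgeR adjusted p = 0.00148), which is 3.18-fold.

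VWF had 578, 1197, 818 and 1084 CPM in cyclic BV and 570.1, 1274, 1449 and 1480 CPM in pregnant BV, in the same order of gilts. In S it had 417, 456, 176 and 399 CPM in the cyclic and 849, 282, 370.1 and 889.8 CPM in the pregnant gilts. VWF was therefore higher in BV than in S in 7 of 8 gilts, with pregnant gilt P139 the exception. The mean difference was 1.26 (SE 0.39, edgeR adjusted p = 0.0356), which does not pass 1%. Without gilt P139 it was 1.46 (edgeR adjusted p = 0.00885) and passed, which it did with no other gilt left out.

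CLDN5 was higher in BV in 8 of 8 gilts, with a mean difference of 2.82-fold (SE 0.54 on the log2 scale, edgeR adjusted p = 0.0680). Its S values were 3.29, 3.65, 1.82 and 17.1 CPM in cyclic gilts C128, C40, C42 and C78 and 16.1, 13.3, 4.26 and 10.6 CPM in pregnant gilts P139, P39, P41 and P43, against 11.13 to 38.3 CPM in BV. The values of C78, P139 and P39 thus lay inside the range of BV. Without gilt C78 the difference was 2.08 on the log2 scale and passed 1%, which it did with no other gilt left out. The other 7 members had differences of 0.44 (EGFL7) to 0.76 (ERG) with adjusted p from 0.108 to 0.364. ERG was higher in BV in 7 of 8 gilts, CDH5, EMCN, EGFL7 and ESAM in 6, and TIE1 and ENG in 5, and pregnant gilt P139 was among the exceptions for all 7. The median difference of the 10 members was 0.70, beside -0.02 over all genes.

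**Figure D3:**
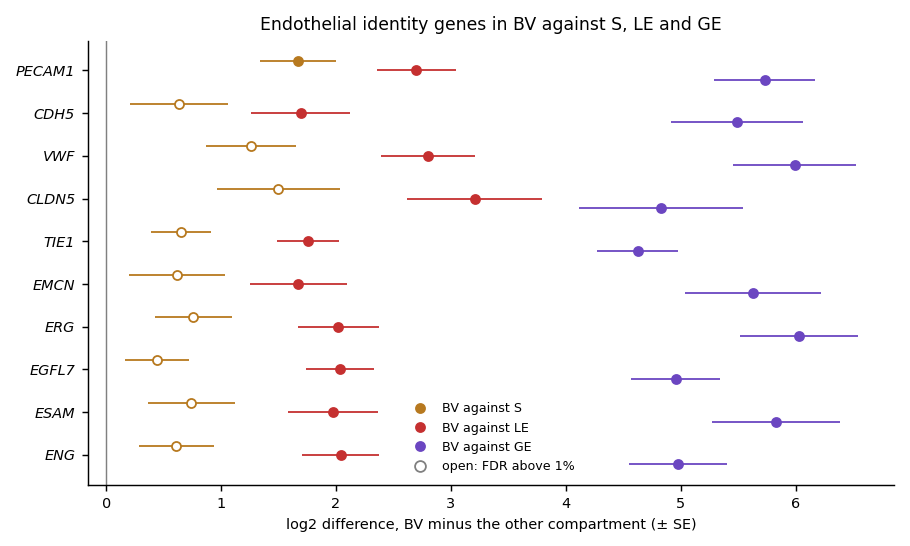
Log2 difference between BV and S, LE or GE (x axis, points with SE) for each member (y axis) from the joint fit, with filled points at an FDR of at most 1%. All points lie above 0, the differences to GE are between 4.63 and 6.03, those to LE between 1.67 and 3.21, and PECAM1 alone is filled against S.

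Within status, the same fit called PECAM1 in cyclic gilts, with 2.17 (SE 0.47, edgeR adjusted p = 0.00568), where 2.01% of all genes were higher in BV. That call was lost without any one of gilts C40, C42, P43, C78 and C128. In pregnant gilts the difference of PECAM1 was 1.17 (SE 0.46, adjusted p = 0.209) and 0 members were called by edgeR or DESeq2, where 0.0504% of all genes were called higher in BV, while 3 members (PECAM1, TIE1 and VWF) and 15.3% of all genes had an unadjusted p under 0.05. The difference between the 2 statuses is the interaction given with the results on pregnancy.

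Other lists of endothelial genes are read here against the 3.81% of all genes that were higher in BV than in S. Of 32 receptors and surface proteins measured, 1 was higher in BV, TM4SF1, a tetraspanin-like surface protein, with 419.6 ± 72.2 CPM in BV and 141 ± 43.6 in S (adjusted p = 0.00114). Of 21 transcription factors, ETV6 and HEY2 were higher, HEY2 with 63.6 ± 33.0 CPM in BV and 20.9 ± 9.87 in S. Of 17 genes of haemostasis and leukocyte capture, 3 were higher, the chemokine-binding receptor ACKR1, the adhesion molecule ICAM1 and P-selectin (SELP), which shares its storage granule with VWF. SELP had 111 ± 48.3 CPM in BV and 26.8 ± 15.4 in S (adjusted p = 0.00114). Of 11 genes of arterial, venous and capillary endothelium, JAG1, BMX and FABP4 were higher. FABP4 passed the filter in BV alone and BMX did not pass it in S, where they averaged 0.329 and 1.15 CPM, near the floor. The call of FABP4 is thus not independent of the filter. Of 18 junction partners none passed by edgeR, and 9 had an unadjusted p under 0.05 in either direction, beside 27.5% of all genes. The most abundant junction partners were the catenins CTNND1 (551 ± 53.1 CPM in BV, 449 ± 79.3 in S) and CTNNB1 (542 ± 122 and 435 ± 94.0). Of the 19 genes of smooth muscle and pericytes, by contrast, 12 were higher in BV than in S, with a median difference of 2.14 over the list.

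The second question was whether the members differed between pregnant and cyclic gilts within a compartment. Genes were called as DEGs by edgeR's quasi-likelihood test under the rule of the study's methods. This sets an FDR of 1% in LE and carries the p at that limit, 0.000328, over to GE, BV and S as an unadjusted threshold. In BV, 1 member of 10 was called, where 1.86% of all genes were called in either direction, 1.30% as higher and 0.559% as lower in pregnant gilts. By edgeR, 3 members (TIE1, EGFL7 and PECAM1) had an unadjusted p under 0.05, beside 28.5% of all genes.

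TIE1 had 32.3, 35.4, 37.5 and 41.2 CPM in cyclic BV (gilts C128, C40, C42 and C78) and 79.1, 88.7, 69.7 and 68.3 CPM in pregnant BV (gilts P139, P39, P41 and P43). The lowest pregnant library was above the highest cyclic one. TIE1 rose by 1.07 on the log2 scale (SE 0.14, edgeR adjusted p = 0.0130), which is 2.10-fold, and it was called by DESeq2 and by edgeR's robust GLM as well. Without gilt P39, C40 or C42 the difference was 1.0, 1.05 and 1.09 and no longer passed. The limit taken from LE was then lower, between 8.37e-05 and 9.4e-05, and the unadjusted value of TIE1 was higher, between 9.11e-05 and 0.000171. Pregnant gilt P139, whose BV library held arterial and lymphatic genes, lay inside the pregnant range, and without it TIE1 differed by 1.06 and was called.

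EGFL7, which endothelial cells secrete into their matrix, had 34.3, 39.3, 42.02 and 40.8 CPM in cyclic BV and 71.5, 76.5, 57.5 and 104 CPM in pregnant BV, in the same order. These groups did not overlap either. The difference was 0.99 (SE 0.19, edgeR adjusted p = 0.0180), with an unadjusted value of 0.000357 just outside the limit of 0.000328. EGFL7 was called by DESeq2 (adjusted p = 0.000152) and by the robust GLM (adjusted p = 9.29e-05), which called 8.50% and 11% of all genes in BV, and by edgeR at an FDR of 5%. Without gilt P41 the difference was 1.11 and was called by edgeR, which it was with no other gilt left out.

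Of the 10 members, 2 (TIE1 and EGFL7) had groups without overlap in BV, where 18.2% of all genes did. The other 8 overlapped and were not called by edgeR, DESeq2 or the robust GLM. ENG had 146 to 255 CPM in cyclic and 159 to 409 CPM in pregnant BV, with a difference of 0.63 (SE 0.31, edgeR adjusted p = 0.215). CDH5, VWF and ERG had differences of 0.35, 0.39 and 0.38, and EMCN and ESAM of 0.06 and 0.05. Lower means in pregnant BV were found for PECAM1, with -0.53 (SE 0.22, adjusted p = 0.157), and for CLDN5, with -0.32 (SE 0.34, adjusted p = 0.576). The highest cyclic value of PECAM1, 788 CPM, belonged to gilt C78, whose BV library had the largest sum of smooth muscle genes, and without it the difference was -0.31. The median over the 10 members was 0.36, beside 0.00 over all genes in BV.

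In S, the differences of the members ran from -0.09 (EMCN) to 0.73 (VWF and TIE1), and edgeR, DESeq2 and the robust GLM each called 0 of 10, where edgeR called 0.293% of all genes, and 0 of 10 members had an unadjusted p under 0.05, beside 14.5% of all genes. TIE1 had 32.7, 17.1, 13.5 and 49.1 CPM in cyclic S and 87.9, 28.1, 27.2 and 43.9 CPM in pregnant S (gilts in the same order), with a difference of 0.73 (SE 0.48, edgeR adjusted p = 0.521). TIE1 spread more than 3-fold among the S libraries of either group. The median of the 10 members in S was 0.51, beside 0.00 over all genes.

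In LE the members averaged 2.80 to 157 CPM, each below its mean in BV and S and above that in GE. No member was called by edgeR, DESeq2 or the robust GLM, where edgeR called 3.32% of all genes, and 2 members, VWF and TIE1, had an unadjusted p under 0.05, beside 26.9% of all genes. VWF had 72.0, 146, 147 and 50.3 CPM in cyclic LE and 179, 257, 224 and 179 CPM in pregnant LE, without overlap, a difference of 1.03 (SE 0.33, edgeR adjusted p = 0.0766). TIE1 had 13.1, 12.2, 11.7 and 9.33 CPM in cyclic LE and 13.4, 28.3, 24.1 and 16.0 CPM in pregnant LE, a difference of 0.83 (SE 0.26, adjusted p = 0.0711). The lowest pregnant value of TIE1 was above the highest cyclic one by less than 1 CPM. Groups without overlap were found for 19.4% of all genes in LE. The other 7 members detectable in LE had differences of 0.30 (ENG) to 0.82 (PECAM1), and CLDN5, tested only without the filter, 1.22 (SE 0.86, adjusted p = 0.490). The sum of fibroblast genes, 4398 to 15910 CPM in cyclic and 11190 to 18460 CPM in pregnant LE, was measured in the same libraries, and its part in the members' differences was not tested.

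In GE the highest value of each member belonged to pregnant gilt P139, at 165 CPM summed over the 10, against 16.0 to 57.7 CPM in the other 6 GE libraries. No member of the 4 detectable ones was called by edgeR, DESeq2 or the robust GLM, where edgeR called 0.748% of all genes, and VWF alone had an unadjusted p under 0.05 (difference 1.88, SE 0.78, adjusted p = 0.202), beside 23% of all genes. Without gilt P139 the difference of VWF was 0.74 and that of CDH5 changed from 0.96 to -0.92. For the 6 members that did not pass the filter in GE, edgeR gave 0.67 (CLDN5) to 1.82 (ERG) without it, none called.

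**Figure D4:**
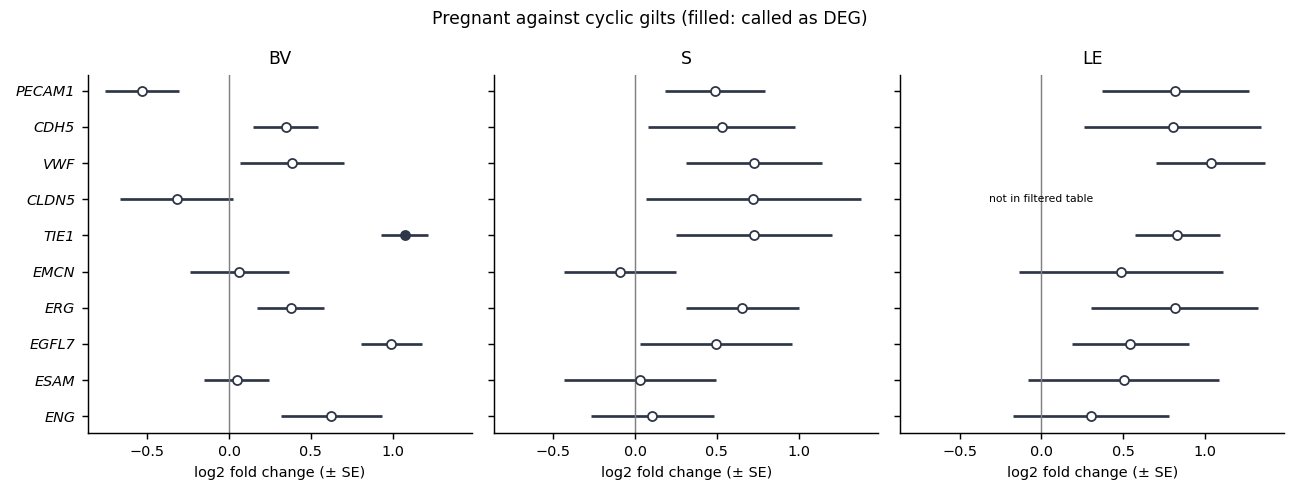
Log2 fold change of pregnant against cyclic gilts (x axis, points with SE) for each member (y axis) in BV, S and LE from the fit of each compartment, with filled points for called DEGs. TIE1 in BV is the 1 filled point, EGFL7 in BV lies beside it at 0.99, and PECAM1 and CLDN5 lie below 0 in BV only.

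Whether pregnancy acted differently in BV than elsewhere was tested by the interaction in the joint fit. No member was called against S, LE or GE by edgeR or DESeq2, where 0% (0 genes), 2.30% and 0.0792% of all genes were called by edgeR, and 4.67% of all genes had an unadjusted p under 0.05 against S. The effect in BV minus that in S was 0.30 (SE 0.53) for TIE1, 0.54 (SE 0.56) for EGFL7 and -1.0 (SE 0.64) for PECAM1, each with an edgeR adjusted p of 1. Of the 30 interactions of members, PECAM1 in BV minus LE alone had an unadjusted p under 0.05, with -1.36 (SE 0.65, edgeR adjusted p = 0.220). An unadjusted p under 0.05 was found for 22.7% of all genes in BV minus LE and for 16.2% in BV minus GE. The rise of TIE1 in BV was thus not shown to differ from its change in S or LE.

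Since pregnant and cyclic BV can differ in how much endothelium was captured, the members' counts were also set against those of PECAM1 within each library, which needs no normalization. TIE1 had 9.26, 7.06, 6.54 and 5.23 counts per 100 PECAM1 counts in cyclic BV (gilts C128, C40, C42 and C78) and 23.5, 22.4, 16.7 and 18.5 in pregnant BV (gilts P139, P39, P41 and P43). The groups lay more than 1.5-fold apart at their nearest values. EGFL7 had 5.17 to 9.84 in cyclic and 13.8 to 28.0 in pregnant BV, ERG 8.30 to 11.9 and 15.3 to 21.4, and CDH5 32.2 to 64.8 and 76.0 to 95.7. These 4 of 9 members had groups without overlap, all higher in pregnant BV, where 15.7% of all genes did in that direction. PECAM1 itself was lower on average in pregnant BV, so that a ratio to it is raised for every gene. The other 5 members overlapped, with VWF at 138 to 239 and 169 to 400 counts per 100.

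In S and LE, all 9 ratios overlapped between cyclic and pregnant gilts. TIE1 had 15.3 to 28.1 counts per 100 PECAM1 counts in cyclic and 17.2 to 34.5 in pregnant S. The ratios of TIE1, EGFL7, ERG, CDH5 and ENG lay in cyclic BV below all those in S of either status, while those of the other members overlapped. The share of all genes with such ratios was not counted. PECAM1, the divisor, had the largest difference between BV and S among the members, which lowers each ratio in BV, and no test was made of this.

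**Figure D5:**
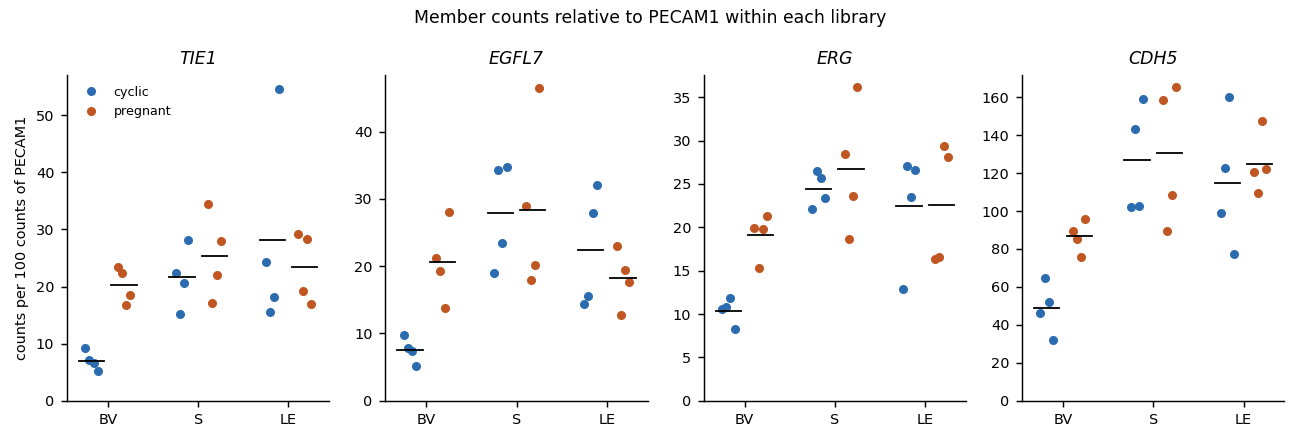
Counts of TIE1, EGFL7, ERG and CDH5 per 100 counts of PECAM1 in the same library (y axis) in BV, S and LE (x axis) of cyclic and pregnant gilts, each point a library and each bar a group mean. In BV the cyclic and pregnant points of all 4 genes do not overlap, as with 5.23 to 9.26 against 16.7 to 23.5 for TIE1, while in S and LE they do.

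Other cell types differed between cyclic and pregnant BV in the same libraries. Epithelial genes (14 genes) summed to 57.5, 78.5, 14.8 and 71.0 CPM in cyclic BV and to 479.6, 308, 228 and 268 CPM in pregnant BV. Of the 10 detectable in BV, edgeR called CDH1, CLDN3 and GRHL2 as higher in pregnant BV. DESeq2 called 8 of the 10 and the robust GLM all 10, and 10 had an unadjusted p under 0.05 by edgeR, beside 28.5% of all genes. The median difference of the 10 was 2.95. In LE itself the list summed to 2748 to 3894 CPM. Genes of smooth muscle and pericytes summed to 10080, 9758, 12880 and 26100 CPM in cyclic BV and to 11450, 3162, 5232 and 3758 CPM in pregnant BV. Of these 19 genes, edgeR called 0, and 11 had an unadjusted p under 0.05, beside the same 28.5% of all genes. DESeq2 called MYLK and TAGLN as lower and PDGFRB, a receptor of pericytes, as higher in pregnant BV, and the robust GLM called 12 as lower and 1, PDGFRB, as higher. The arterial genes GJA5 and BMX, chosen after their values were seen, had 95.6 to 199.6 and 11.4 to 24.2 CPM in cyclic BV but at most 9.10 and 1.52 CPM in pregnant gilts P39, P41 and P43. They were called as lower by the robust GLM but not by edgeR, and DESeq2 did not call GJA5 and gave no adjusted p for BMX. The arterial genes DLL4 and EFNB2 overlapped with the cyclic libraries. DLL4 had 12.7 to 30.4 CPM in cyclic BV and 25.8, 7.28 and 28.2 CPM in P39, P41 and P43, and EFNB2 12.3 to 20.2 CPM and 7.58, 11.9 and 15.2 CPM. In gilt P139, GJA5 (256 CPM), BMX (33.0 CPM) and the smooth muscle sum were in or above the cyclic range. That library also had 562 CPM of lymphatic genes and the highest epithelial sum in BV, 479.6 CPM. TIE1 and EGFL7 had 79.1 and 71.5 CPM there, both in the pregnant range. In LE, TIE1 and EGFL7 averaged 16.0 and 13.2 CPM over both statuses, below every BV library. The part of these cell types in the differences of TIE1 and EGFL7 was not tested, and P139 is 1 library.

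Other lists of endothelial genes were tested in pregnant against cyclic BV, where edgeR, DESeq2 and the robust GLM called 1.86%, 8.50% and 11% of all genes. Of 31 receptors and surface proteins, CAV1, the coat protein of caveolae, fell by 0.86 on the log2 scale (SE 0.15, edgeR adjusted p = 0.0163), from 801 to 931 CPM in cyclic to 421 to 587 CPM in pregnant BV. The other most abundant genes of that list, PTPRB, NRP1 and TM4SF1, averaged 781 ± 176, 516 ± 125 and 419.6 ± 72.2 CPM in BV, overlapped between the groups and were not called. DESeq2 and the robust GLM also called ADGRF5 (edgeR difference -1.35, adjusted p = 0.0251) and STAB1 (0.68, adjusted p = 0.0424), and the robust GLM alone APLNR (1.55) and MCAM (-1.21). The median of the receptors was 0.20. The sum of smooth muscle genes was lower in BV of P39, P41 and P43 than in cyclic BV. Its part in the differences of CAV1, MCAM and the other genes of the list was not tested. PTPRB is the phosphatase that acts on TEK and CDH5.

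Of 19 endothelial transcription factors detectable in BV, SOX17 rose by 1.44 (SE 0.20, edgeR adjusted p = 0.0130), from 14.4 to 24.1 CPM in cyclic to 42.9 to 68.9 CPM in pregnant BV. TAL1 (1.0, adjusted p = 0.0180) and SOX18 (1.28, adjusted p = 0.0181) lay as close to the limit as EGFL7 and were called by DESeq2 and the robust GLM, and DESeq2 also called ETS1 (0.57, adjusted p by edgeR 0.0519). EPAS1, NR2F2, MEF2C and TCF4, the most abundant of the list, averaged 816 ± 183, 524 ± 88.6, 239 ± 39.98 and 229.9 ± 23.2 CPM in BV and were not called. Of 10 genes of arterial, venous and capillary endothelium, EPHB4, the ephrin receptor of venous endothelium, rose by 0.95 (SE 0.17, adjusted p = 0.0164), from 34.4 to 56.8 CPM to 80.1 to 100.4 CPM. JAG1, EDNRB and GJA5, which were more abundant, were not called by edgeR (GJA5 -1.10, SE 1.03, adjusted p = 0.519). FABP4, a fatty acid carrier of capillary endothelium, was called as lower by DESeq2 and the robust GLM (edgeR difference -2.68, SE 0.76, adjusted p = 0.0569), with 8.04 CPM in P139 and 0.379 to 1.11 CPM in the other pregnant BV libraries. None of 18 junction partners and none of 16 genes of haemostasis was called by edgeR, where DESeq2 called 1 (RAP1A) and 0. By edgeR, 7 and 5 had an unadjusted p under 0.05, beside 28.5% of all genes. The robust GLM called RADIL among the junction partners, and its calls among the genes of haemostasis included F8 (0.84) and THBD (0.63), both higher in pregnant BV. The medians of the lists were 0.31 and 0.32. CTNND1, CTNNB1, TJP1 and CTNNA1 led the first list, with 254 to 551 CPM on average in BV, and CD63, F8 and VCAM1 were among the most abundant of the second, with 156 to 233 CPM.

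The members varied together to different degrees in the 4 compartments. Over the 8 BV libraries, the 45 pairs of members had a median Pearson r of 0.317 on the log2(CPM + 0.5) scale, from -0.911 (VWF and CLDN5) to 0.882 (TIE1 and EGFL7). Over the libraries of S, LE and GE, the medians were 0.825, 0.850 and 0.733 and all 45 pairs were positive. The 2 genes of a pair share their library, its depth and its captured tissue, so the coefficients are descriptions. The negative pair in BV rests on values already given for VWF. Gilts C128 and P139 had the lowest VWF (578 and 570.1 CPM) and the highest CLDN5 (38.3 and 35.5 CPM) of their groups, while the other 6 BV libraries had 818 to 1480 CPM of VWF and 11.13 to 23.0 CPM of CLDN5. Both gilts also had the lowest EMCN of their groups, 73.0 and 69.8 CPM.

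The genes most like the members were ranked by Pearson r with the mean of the members' standardised log2(CPM + 0.5) over 31 libraries, among 9595 other genes with a mean of at least 10 CPM in BV. The first 10 were AKAP2 (0.989), TEK (0.989), ARHGAP31 (0.987), JAM2 (0.985), SHE (0.984), CD93 (0.984), CLEC14A (0.984), FLI1 (0.983), ADGRL4 (0.983) and MEF2C (0.982). The order of the compartments enters these coefficients, which were not computed within compartments. TEK, the angiopoietin receptor, had 260.5 CPM in BV, 151 in S, 63.2 in LE and 6.38 in GE on average.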

How the data were processed

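Levels of 10 endothelial genes were taken from 31 RNA-seq libraries (4 compartments, 4 gilts per status). The authors amplified RNA with Ovation SoLo, used Trim Galore and then Hisat2 on the Sscrofa11.1 assembly, discarded PCR duplicates and deposited raw counts per NCBI gene made with QuasR, in a full table and a table filtered by a CPM minimum that is not given in the sources used here, nor is the strand setting or the versions. Filtered counts were checked to equal the full ones. The submitters' processing notes name edgeR without a version.

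Pregnancy was tested per compartment on the filtered counts, scaled by TMM, with the quasi-likelihood test in edgeR 4.0.16 (R 4.3.3), with Benjamini-Hochberg adjustment. Compartments were compared in a joint fit of 13887 genes with the gilt as a block, since the libraries of a gilt come from the same animal. Deviations from the group means correlated by 0.169 on average between compartments of the same gilt (45 pairs, -0.183 to 0.351) and by -0.0552 between gilts. CPM are TMM-normalised over 31 libraries, and log2 values used a pseudocount of 0.5. Alternatives were DESeq2 1.42.0, edgeR's robust GLM, which the study's methods name, RLE, no filter, an FDR of 5%, no block and each gilt left out. The fits were tested on simulated data. Gilts are the replicates. Symbols, positions and exon lengths came from the RefSeq annotation of Sscrofa11.1, as did upstream sequence. Of 190 genes in the lists of endothelial and other marker genes, 188 matched (not PAX8 and PF4). From each endothelial list, genes called in BV and the up to 4 most abundant in BV are named. The members and lists were chosen with earlier results of these data known. One of these abundant genes and the upstream sequence of 1 member are not reported here.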

Additional observations from a re-analysis of the deposited data

Results flagged for a closer look

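In each group of 4 gilts, the gap between the highest or lowest library of a member and its neighbour was compared with the range of the group by Dixon's ratio at its 95% critical value. Of 70 groups of a member in a compartment, 5 passed, while chance passes about 5 in 100. CLDN5 made up 3 of them. In cyclic BV it was highest in gilt C128 with 38.3 CPM (114 counts), against 23.0 CPM in the next library. In cyclic S it was highest in gilt C78 with 17.1 CPM (100 counts), against 3.65 CPM, and in cyclic GE in gilt C40 with 2.54 CPM (11 counts), against 0.202 CPM. EMCN was lowest in pregnant BV of gilt P139 with 69.8 CPM (165 counts), against 133 CPM in the next library, and ERG was lowest in pregnant LE of the same gilt with 7.46 CPM (29 counts), against 24.5 CPM. Pregnant GE, with 3 libraries, was not examined in this way.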

How the results depend on the processing

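The calls of all 10 members in BV against GE and LE held under every alternative run, each gilt left out included, and no member was called in LE, GE or S, or in an interaction, under any. In pregnant against cyclic BV, 1 member was called, and 2 (TIE1 and EGFL7) with DESeq2, the robust GLM, no filter on low counts or an FDR of 5% within the compartment, and 0 to 2 when 1 gilt was left out. In BV against S, 1 member was called, and 2 with DESeq2, and 1 to 2 when 1 gilt was left out, while PECAM1 in cyclic gilts alone gave 0 to 1. Leaving out the replicate block changed no call of a member and gave 5 in place of 11 genes for the effect in BV minus GE. Over all genes, DESeq2 called 1342, 791, 943 and 310 DEGs in LE, GE, BV and S, the robust GLM 1411, 793, 1216 and 377, and an FDR of 5% 1288, 221, 958 and 4, in place of 398, 89, 206 and 35. With 1 gilt left out, the counts ran from 101 to 439, 8 to 110, 15 to 206 and 3 to 56. DESeq2 called 3, 771 and 200 interactions in BV minus S, LE and GE, in place of 0, 319 and 11, and with 1 gilt left out the range was 118 to 301 in LE and 0 to 18 in GE. BV against S gave 591 to 1036 genes in place of 998. The sign turned for EMCN and ESAM in BV, EMCN, ESAM and ENG in S, and CDH5 and PECAM1 in GE, of which the last pair stood at 0.96 and 0.77. The robust GLM gave -0.050 for CDH5 in GE and -0.066 for ESAM in S. With 1 gilt left out, pregnant minus cyclic ranged from -0.10 to 0.32 for EMCN and from -0.051 to 0.29 for ESAM in BV, in S from -0.45 to 0.12 for EMCN, -0.39 to 0.38 for ESAM and -0.14 to 0.35 for ENG, and in GE from -0.053 to 1.24 for PECAM1 and -0.92 to 1.48 for CDH5. The cause was not tested.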
